A study of Rattus norvegicus with 8 samples.

Results

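10 genes of DNA replication and chromatin were followed in a rat cell line with and without induction of a mutant huntingtin fragment. They were Pold1, Mcm7, Pcna, Top2a, Prim1, H2ax, H2az1, Hist1h2af, Hist1h2ao and Hist4h4. The genes were chosen by symbol, and each probe set that the array annotation assigns to 1 of these symbols alone was used. This gave 14 of the 8799 probe sets, for 10 of the 4737 genes that have a probe set with a single symbol. The arrays came from 4 induced and 4 uninduced samples of line Htt14A2.5, each group numbered 1 to 4 and set by the sample titles. All 8 samples are PC12 cells, which come from a rat pheochromocytoma, a tumour of the adrenal medulla. The cells of both groups stably carry a truncated human huntingtin exon 1 that is mutant and can be switched on. The inducer was ponasterone (PA), named with 48 h. Htt14A2.5 is a single line, the sources used here do not give its promoter, and the free text of every sample mentions induction. Nothing says whether the replicates were separate cultures, so the p-values measure only the spread between these samples, which may be technical.

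A dividing cell copies its DNA once per cycle. The MCM helicase, of which Mcm7 is a subunit, opens the double helix, and primase, whose catalytic subunit is Prim1, starts each new strand. DNA polymerase delta, with the catalytic subunit Pold1, extends these starts while held to the template by the ring-shaped clamp Pcna. Topoisomerase II alpha, the product of Top2a, untangles the copied strands and is abundant in cycling cells. New DNA is wrapped on histones. Canonical histones such as those of the Hist1 cluster are made mostly in S phase, while variants such as H2ax, which is phosphorylated at DNA breaks, and H2az1, found near active promoters, are also made outside it. PC12 cells divide in culture and can stop dividing when they differentiate.

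In all, 7 of the 10 genes had lower signals in induced cells, and for Pold1, Mcm7, Pcna, Top2a, H2ax and Hist1h2af each probe set fell. The exception among the 7 was Prim1, for which 1 of its probe sets fell. Of the 14 probe sets 10 fell, 0 rose, and 4 did not pass the test, which was limma with a threshold of 0.05 on the Benjamini-Hochberg adjusted p over 6129 tested probe sets. Over all tested probe sets 7.06% were called, 2.97% lower and 4.1% higher. All induced arrays lay below all uninduced arrays in the 10 that fell and in 0 of the other 4, against 7.11% of all tested probe sets. The median log2 difference, induced minus uninduced, was -0.66 over the 14 probe sets and -0.05 over the 6129. With 1 probe set per gene, 7 of 10 genes fell at a median of -0.63, against 2.9% of 3623 genes and a median of -0.05. The 10 genes were chosen with earlier results of these data known, so these shares describe them and do not test them. The log2 differences of the 10 probe sets that fell ran from -1.41 for Pold1 to -0.47 for H2ax. In bulk samples, fewer cells in S phase and less RNA per cell cannot be told apart.

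The 10 calls did not depend equally on the scaling. When each array was centred on its median, 5 of the 14 probe sets were called, those of Pold1, Mcm7 and Top2a, and the calls of Pcna, Prim1, H2ax and Hist1h2af ended (adjusted p from 0.0832 to 0.195) with log2 differences of -0.90 to -0.44. Over all probe sets the same centring gave 63 lower and 166 higher calls, against 182 lower and 251 higher with the deposited scaling. Leaving out uninduced replicate 2 gave 119 lower calls, and leaving out uninduced replicate 3 gave 112. In 7 of the 8 fits that left out 1 array, 10 of the 14 probe sets were called lower, and 11 without uninduced replicate 1.

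Promoter sequence is shown for 4 of the genes that fell, each with matches to motifs known from cell cycle genes of mammals. The kinds of motif differ between Mcm7, Top2a and the histone genes H2ax and Hist1h2af, which hold the same kinds as each other. E2F factors, active at the entry to S phase, bind sites related to the letters below; NF-Y binds CCAAT boxes; the cell cycle homology region (CHR) is bound by complexes that time transcription to late cycle; and the TATA box positions the start. The letters searched for E2F, on both strands, were TTTCGCGC, TTTGGCGC, TTTCCCGC and TTTGCCGC. The CCAAT box was searched by those letters. The CHR was searched as TTTGAA, and the TATA box was searched as TATAAA, all on both strands. The sequences are the 250 bases before the start annotated by RefSeq (GRCr8), 5′ to 3′ on the strand of the gene, with each match in capitals. They lie at chr12:22163179-22163428 for Mcm7 (minus strand), chr10:84473094-84473343 for Top2a (minus strand), chr8:53568468-53568717 for H2ax (plus strand) and chr17:41807654-41807903 for Hist1h2af (minus strand).
Mcm7: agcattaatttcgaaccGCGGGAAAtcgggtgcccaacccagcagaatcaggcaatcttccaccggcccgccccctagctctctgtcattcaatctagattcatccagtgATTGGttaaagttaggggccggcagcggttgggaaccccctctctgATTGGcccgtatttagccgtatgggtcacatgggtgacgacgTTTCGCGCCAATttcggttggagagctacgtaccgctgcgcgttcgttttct
Top2a: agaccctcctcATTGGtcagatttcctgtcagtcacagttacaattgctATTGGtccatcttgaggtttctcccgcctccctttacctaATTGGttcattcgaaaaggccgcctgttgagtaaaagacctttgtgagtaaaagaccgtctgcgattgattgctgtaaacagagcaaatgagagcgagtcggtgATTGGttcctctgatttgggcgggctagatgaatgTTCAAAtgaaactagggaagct
H2ax: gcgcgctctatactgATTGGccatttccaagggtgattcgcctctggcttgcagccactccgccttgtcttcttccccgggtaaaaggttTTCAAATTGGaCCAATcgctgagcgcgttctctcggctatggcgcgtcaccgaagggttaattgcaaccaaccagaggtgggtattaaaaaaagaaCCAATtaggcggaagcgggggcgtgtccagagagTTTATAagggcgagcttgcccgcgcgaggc
Hist1h2af: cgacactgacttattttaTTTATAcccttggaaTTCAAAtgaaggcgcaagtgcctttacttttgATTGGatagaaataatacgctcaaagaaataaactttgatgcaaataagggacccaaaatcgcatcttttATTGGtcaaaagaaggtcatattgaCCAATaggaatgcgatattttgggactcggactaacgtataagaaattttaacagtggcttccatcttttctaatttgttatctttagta

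Mcm7 was the only one of 9 members with a window that held an E2F match, with 2 of them, and the one at -52 to -45 shares its last base with a CCAAT box at -45 to -41. The same letters occurred in 1.73% of all 33469 windows. CCAAT was held by 7 of 9 windows, against 34.0% of all windows, with 4 matches each for Top2a and H2ax. These 7 include Pold1 and H2az1, whose windows start far inside the gene; without them it was 5 of 7 windows. TTTGAA was held by 3 of 9 windows against 16.2%, in Top2a at -22 to -17, in H2ax at -160 to -155 and in Hist1h2af at -217 to -212. In H2ax a TTTGAA match shares its last base with a CCAAT match. TATAAA was held by 2 of 9 windows against 12.9%, in H2ax at -30 to -25 and in Hist1h2af farther from the start, at -232 to -227, both on the other strand. The windows of Prim1 and Hist1h2ao held none of these letters, and that of Pcna held 1 CCAAT match alone. Pcna and Prim1 also fell, though their windows are not shown. The starts used for Pold1 and H2az1 lie 5092 and 2631 bases inside the annotated 5′ end of the gene, so those windows are not shown, and that of Mcm7 lies 142 bases inside it. Hist4h4 is named only. A match describes the sequence and is no measured site.

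**Figure D1:**
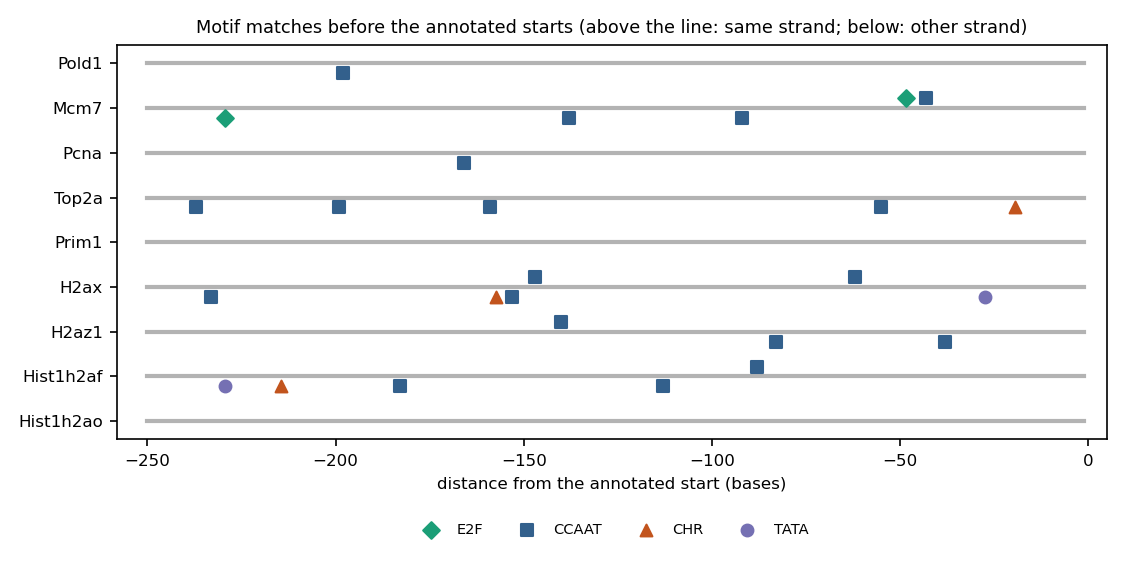
Motif matches in the 250 bases before the annotated start of 9 genes, by distance from that start in bases; markers above a line are on the strand of the gene and those below it on the other strand. Mcm7 carries the 2 E2F matches, and 7 of the 9 genes carry CCAAT, or 5 of 7 without Pold1 and H2az1, whose starts lie far inside the gene.

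Pold1 had the largest fall of the 14 probe sets. Its signal was 305, 348, 233 and 160.5 in induced replicates 1 to 4, against 707, 742, 691 and 585 in uninduced replicates 1 to 4. The highest induced array lay well below the lowest uninduced one, and induced replicate 4 was the lowest of the 8. The means were 262 ± 82.5 in induced and 681 ± 67.6 in uninduced cells (SD, n = 4 each). On the log2 scale the difference was -1.41 ± 0.21 (SE of the limma fit, adjusted p = 0.0014), which is 62.3% lower. The 95% interval ran from -1.87 to -0.95, and the call held in all 18 alternatives, with log2 differences of -1.56 to -1.14.

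Mcm7 had signals of 2040, 2043, 2024 and 1629 in induced replicates 1 to 4, against 3195, 3657, 3236 and 3075 in uninduced replicates 1 to 4. Induced replicates 1 to 3 were nearly equal and replicate 4 was lower, and the groups did not overlap. The fall was 0.77 ± 0.10 on the log2 scale (adjusted p = 0.00057), and it passed in all 18 alternatives.

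Pcna, the sliding clamp, was read by a pair of probe sets. M24604_at gave 6814, 6125, 6023 and 4896 in induced replicates 1 to 4, against 10049, 9424, 10486 and 8010 in uninduced replicates 1 to 4. M24604_g_at gave 3546, 3238, 2796 and 1838 in induced replicates, against 5514, 5260.2, 6299 and 4306 in uninduced ones. Both separated the groups, and within each group replicate 4 was lowest in both. The falls were 0.67 ± 0.12 (adjusted p = 0.0037) and 0.93 ± 0.18 (adjusted p = 0.0087). Both calls ended with median centring (adjusted p = 0.13 and 0.11), and that of M24604_g_at ended also without the eBayes trend (0.057).

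Top2a was read by 3 probe sets, and all fell. Probe set rc_AA899854_at gave 1869.5, 1845, 1752 and 1506 in induced replicates 1 to 4, against 3345, 3475, 3606 and 2981.5 in uninduced replicates 1 to 4. Z19552cds_at gave 991, 1125, 869.7 and 962 in induced replicates, against 2136, 1906, 2496 and 2225 in uninduced ones. D14045_s_at gave 305, 389, 374 and 339 in induced replicates, against 613, 466, 594 and 739 in uninduced ones. No probe set of the 3 overlapped between the groups, and no array was lowest in all 3. The falls on the log2 scale were 0.94 ± 0.10, 1.14 ± 0.11 and 0.75 ± 0.16 (adjusted p = 0.00010, 5.8e-05 and 0.011), and each held in all 18 alternatives.

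Prim1, the primase subunit, gave unlike results for its probe sets. AJ011608_at had signals of 930, 814, 844 and 600 in induced replicates 1 to 4, against 1242, 1222.5, 1205 and 1137.5 in uninduced replicates 1 to 4. The uninduced arrays were close together and the induced ones were all lower and more spread, a fall of 0.61 ± 0.13 (adjusted p = 0.015). U67994_at had 321, 367, 279.7 and 273 in induced replicates, against 327, 354, 415 and 526 in uninduced ones, and these groups overlapped. Its difference of -0.37 ± 0.17 did not pass (adjusted p = 0.30, 95% interval -0.75 to 0.016). The difference between the log2 differences of the 2 probe sets was -0.24, within the spread between arrays (two-sided exact permutation p = 0.37). The first call ended with median centring (adjusted p = 0.19), with eBayes without a trend (0.065) and without the replicates numbered 2 (0.099).

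**Figure D2:**
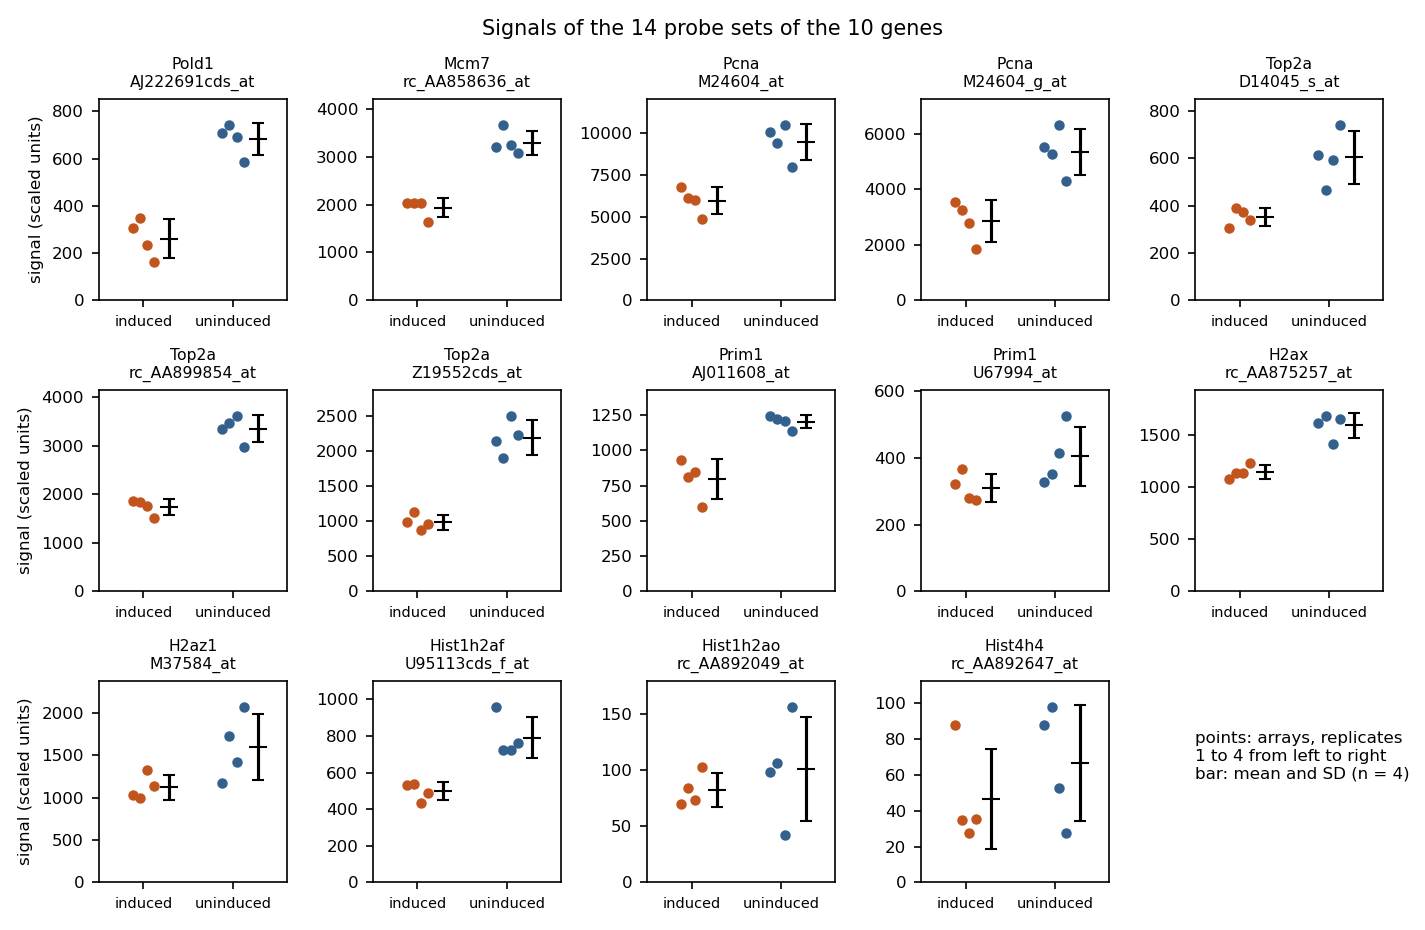
Scaled signal of each of the 14 probe sets on linear axes from 0, with 1 point per array (induced left, uninduced right; replicates 1 to 4 from left to right) and the mean with its SD (n = 4). In 10 panels the highest induced array lies below the lowest uninduced array; Prim1 U67994_at, H2az1, Hist1h2ao and Hist4h4 overlap.

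Among the histone genes, H2ax and Hist1h2af fell. H2ax had 1079, 1133, 1141 and 1231 in induced replicates 1 to 4, against 1619, 1682, 1418 and 1659 in uninduced replicates 1 to 4. All induced arrays lay below all uninduced ones, and induced replicate 4, the lowest array for Pold1, Mcm7, Pcna and Prim1, was the highest induced array here. The fall was 0.47 ± 0.10 (adjusted p = 0.010), a call that ended with median centring (0.099) and without the replicates numbered 2 (0.11). Hist1h2af, an H2A gene of the Hist1 cluster, had 529.8, 539, 431 and 491 in induced replicates, against 957, 722, 720.5 and 759 in uninduced ones. The groups did not overlap and uninduced replicate 1 stood above the other uninduced arrays; the fall was 0.65 ± 0.13 (adjusted p = 0.0096). The letter f in the name of its probe set, U95113cds_f_at, is Affymetrix's mark for a set that can bind several members of a sequence family, so the signal may sum over near-identical H2A transcripts.

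H2az1 had 1027, 991, 1321 and 1138 in induced replicates 1 to 4, against 1174, 1721, 1417 and 2064 in uninduced replicates 1 to 4. The groups overlapped through uninduced replicate 1, and the difference of -0.48 ± 0.16 did not pass (adjusted p = 0.12, 95% interval -0.84 to -0.13); it passed without uninduced replicate 1 (adjusted p = 0.035). Hist1h2ao had 69.8, 83.7, 73 and 103 in induced replicates, against 98.6, 106.5, 42.2 and 156 in uninduced ones. Hist4h4 had 88, 34.8, 27.8 and 35.3 in induced replicates, against 87.8, 97.7, 52.9 and 27.8 in uninduced ones. Both sets of groups overlapped, with differences of -0.16 ± 0.36 (adjusted p = 0.89) and -0.46 ± 0.46 (adjusted p = 0.70). These signals were near background. The array carries 38 control probe sets that should find no rat transcript, and their 95th percentile lay between 102 and 137 on induced and between 128 and 183 on uninduced arrays. Hist1h2ao exceeded that of its own array on 1 of 8 arrays and Hist4h4 on 0, while the other 12 probe sets did so on all 8.

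**Figure D3:**
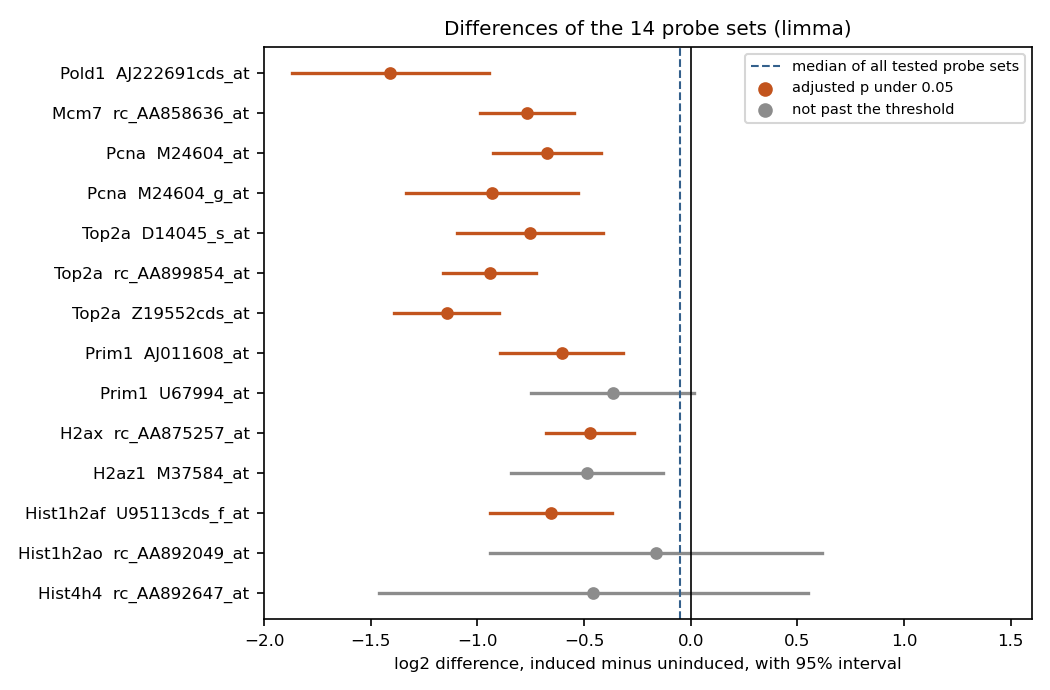
Log2 difference, induced minus uninduced, of each probe set with its 95% interval from limma; orange marks an adjusted p under 0.05 and grey the rest, and the dashed line is the median of all tested probe sets (-0.05). The 10 called intervals lie below the dashed line, that of Pold1 farthest left, and those of Hist1h2ao and Hist4h4 are the widest.

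Whether members fell by unlike amounts was tested on within-array log2 ratios for 26 pairs. They were the 21 pairs of the 7 genes that fell, with 1 probe set per gene, and the 5 pairs of probe sets of the same gene. The probe set of highest mean signal stood for each gene, so the gaps between genes depend on it. For Top2a the log2 difference was -0.94 for the probe set used and -1.14 and -0.75 for its others. With the probe set used given first, the values were -0.67 and -0.93 for Pcna, and -0.61 and -0.37 for Prim1. These tests were added after the values were seen. In 10 of the 21 gene pairs the ratios of the groups did not overlap, including all 6 pairs with Pold1. These 6 pairs share the values of Pold1, the gene with the largest fall, so they are not 6 separate observations. The 7 genes entered these pairs because they had passed the test on these same arrays. The share over pairs of other genes was not computed, so these counts only describe the pairs. Pold1 differed from Mcm7 by a further -0.64, from Pcna by -0.74, from Top2a by -0.47 and from H2ax by -0.94 on the log2 scale. Each of these 4 had a two-sided exact permutation p = 0.029, the smallest that 4 arrays against 4 allow, and an adjusted p = 0.068. Of the 26 pairs 11 had this smallest p, and they share the same adjusted p, which depends on how many pairs reached it. That 0 of 26 pairs passed after adjustment therefore does not measure the size of any gap and decides nothing about unlike falls. Pcna and Prim1 differed by -0.07 (exact permutation p = 0.43), and H2ax and Hist1h2af by 0.18 (exact permutation p = 0.26). The probe sets of Pcna differed from each other by 0.26 with no overlap (exact permutation p = 0.029, adjusted p = 0.068).

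The arrays within a group did not carry equal values. The mean deviation of the 10 genes from their own 8-array means was -0.18, -0.28, -0.38 and -0.48 in induced replicates 1 to 4, against 0.40, 0.46, 0.20 and 0.27 in uninduced replicates 1 to 4 (log2 scale, 1 probe set per gene). Every induced array was below every uninduced one. Induced replicate 4 was the lowest of 8 arrays in 6 of the 10 called probe sets, and in 76 of the 182 probe sets called lower (41.8%). With that array left out, all 10 passed, at smaller sizes for most. The log2 difference was then -1.20 for Pold1, -0.69 for Mcm7, -0.58 and -0.74 for the Pcna probe sets M24604_at and M24604_g_at, and -0.48 for Prim1 AJ011608_at, while that of H2ax was -0.51. That array also had the highest score on the first principal component of all arrays (34.5, range of the others -19.6 to 12.8) and the highest median signal (134.9, range of the others 97.5 to 127).

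**Figure D4:**
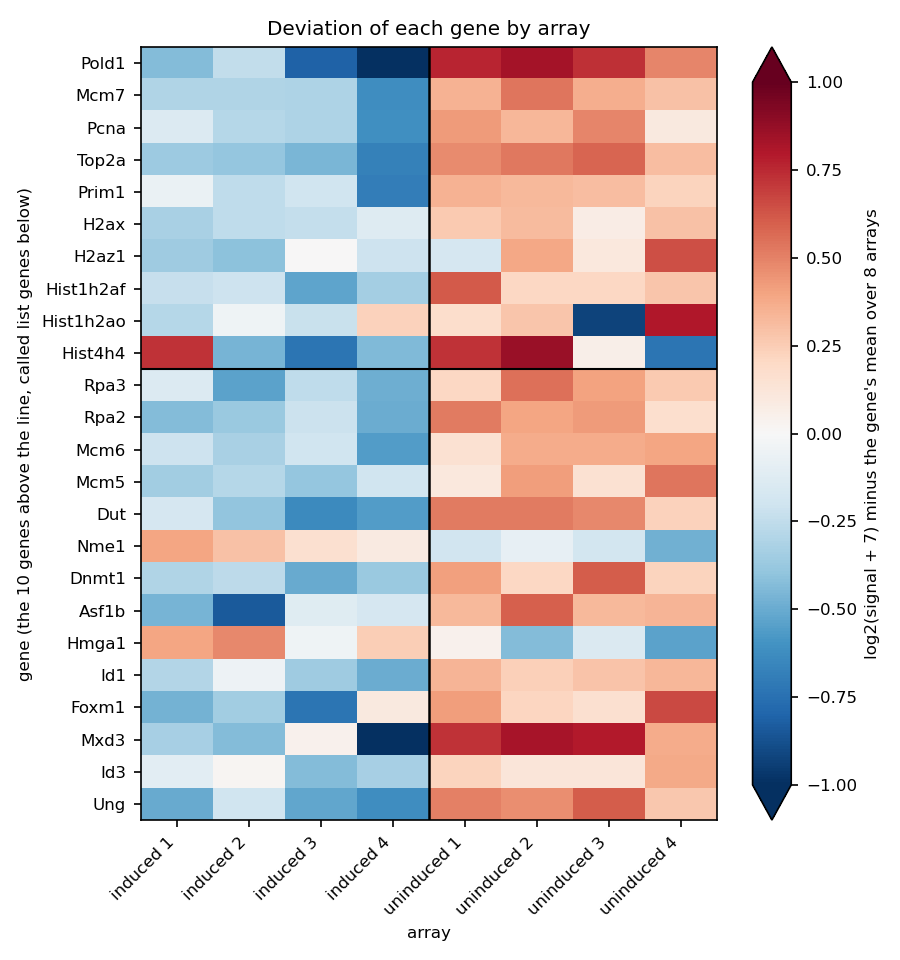
Deviation of log2(signal + 7) from the mean over 8 arrays for each of the 10 genes (above the line) and for genes of the further lists that passed the test (below it), with induced arrays on the left; values beyond 1 share the darkest colour. Most genes are blue in induced and red in uninduced arrays, Nme1 and Hmga1 run the other way, and Hist1h2ao and Hist4h4 vary within both groups.

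Other genes of the same pathway were taken from lists, with 1 probe set per gene. The lists too were chosen with earlier results of these data known, so their counts are descriptive. Over the lists of fork and polymerase genes, origin licensing and deoxynucleotide supply, 5 of 21 tested genes fell, 1 rose and 15 were not called, at a median log2 difference of -0.27, where 2.9% of all tested genes fell and 4.31% rose. The genes that fell were Rpa2, Rpa3, Mcm5, Mcm6 and Dut. The count was 2 with median centring, which ended the calls of Rpa3, Mcm5 and Mcm6 (adjusted p from 0.054 to 0.095), and 2 without the replicates numbered 2, which ended those of Rpa2, Rpa3 and Mcm5 (adjusted p from 0.076 to 0.089).

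At the fork, 2 of 13 genes fell and 11 were not called, with all 13 differences negative (57.4% of all tested genes were), and a median of -0.32. Rpa2 and Rpa3, subunits of the protein that coats single-stranded DNA, fell by 0.75 ± 0.14 and 0.71 ± 0.13 (adjusted p = 0.0075 and 0.0065). Rpa2 had 224, 235, 262 and 215 in induced replicates 1 to 4, against 441, 404, 411 and 343 in uninduced replicates 1 to 4. Rnaseh2a, a subunit of an enzyme that removes RNA from DNA, differed by -0.50 ± 0.18 (adjusted p = 0.15). In the licensing list both tested genes fell, the helicase subunits Mcm6 by 0.64 ± 0.10 and Mcm5 by 0.61 ± 0.12 (adjusted p = 0.0020 and 0.0078), close in size to Mcm7. Mcm6 had 3426, 3159, 3443 and 2672 in induced replicates, against 4380.2, 5104.5, 5101 and 5186.5 in uninduced ones. Of its other probe sets 1 fell by 0.63 and 1 did not pass (-0.63, adjusted p = 0.070).

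In deoxynucleotide supply, 1 of 6 genes fell, 1 rose and 4 were not called, at a median of -0.05. Dut, which removes dUTP so that uracil is kept out of DNA, fell by 0.88 ± 0.12 (adjusted p = 0.00058), with 2185, 1862, 1575 and 1666 in induced replicates 1 to 4, against 3526, 3530.7, 3436 and 2881 in uninduced replicates 1 to 4. Nme1, a nucleoside diphosphate kinase, rose by 0.47 ± 0.11 (adjusted p = 0.020), and the call ended without induced replicate 1 (adjusted p = 0.067) or induced replicate 2 (0.061), and with median centring (0.22). The Nme1 call also ended without the eBayes trend and without the replicates numbered 2. Tyms, thymidylate synthase, differed by -0.26 ± 0.17 (adjusted p = 0.48).

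For the next 2 lists, the shares over all tested genes were 2.9% lower and 4.31% higher. In the list of repair polymerases and replication stress genes, 1 of 10 fell and 9 were not called. This was Ung, the glycosylase that cuts uracil out of DNA, which fell by 0.92 ± 0.13 (adjusted p = 0.00079) and in all 18 alternatives. Ercc1, a repair nuclease subunit, differed by 0.27 (adjusted p = 0.17), and Brca2, of homologous recombination, by -1.23 ± 0.65 (adjusted p = 0.37) at signals near background. In the chromatin assembly list 2 of 10 fell, 1 rose and 7 were not called. Dnmt1, which copies DNA methylation to the new strand, fell by 0.72 ± 0.11 (adjusted p = 0.0020), though another of its probe sets differed by -0.24 (adjusted p = 0.55), and the call ended with median centring (adjusted p = 0.055). Asf1b, a chaperone that brings histones to new DNA, fell by 0.80 ± 0.17 (adjusted p = 0.012), a call that ended without the replicates numbered 2 (adjusted p = 0.091). Hmga1, a chromatin-bending protein, rose by 0.54 ± 0.15 (adjusted p = 0.048), a call kept in 2 of 8 fits without 1 array (those without induced replicate 3 or uninduced replicate 1; highest adjusted p 0.15, without uninduced replicate 2), and its other probe set rose by 0.57 (adjusted p = 0.0075). The histone list outside the 10 genes had 1 tested gene, Macroh2a1, at -0.16 (adjusted p = 0.61).

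In the list of E2F and Rb regulators, 4 of 12 genes fell, 0 rose and 8 were not called, at a median of -0.30. Over all tested genes 2.9% fell and 4.31% rose. Id1, an inhibitor of helix-loop-helix factors, fell by 0.60 ± 0.10 (adjusted p = 0.0023), while its other probe set differed by -0.34 (adjusted p = 0.33). Id1 passed in 17 of 18 alternatives, the exception being median centring (adjusted p = 0.12). Foxm1, an activator of late-cycle genes, fell by 0.73 ± 0.18 (adjusted p = 0.031), and Mxd3, a partner of Max made in S phase, fell by 1.35 ± 0.35 (adjusted p = 0.038). Id3, a relative of Id1, fell by 0.42 ± 0.11 (adjusted p = 0.042). These 3 calls lay close to the threshold, and most fits with 1 array fewer did not make them. Foxm1 passed without induced replicate 4 or uninduced replicate 3 and in 0 of the other 6 fits without 1 array (log2 differences over the 8 fits -0.88 to -0.61, highest adjusted p 0.084). Mxd3 passed without induced replicate 3 or 4 and in 0 of the other 6 (-1.59 to -0.92, highest adjusted p 0.11). Id3 passed without induced replicate 2 and in 0 of the other 7 (-0.50 to -0.35, highest adjusted p 0.11). A second Id3 probe set differed by -0.42 (adjusted p = 0.13). Id2, of the same list, differed the other way, by 0.42, and did not pass (limma adjusted p = 0.089).

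**Figure D5:**
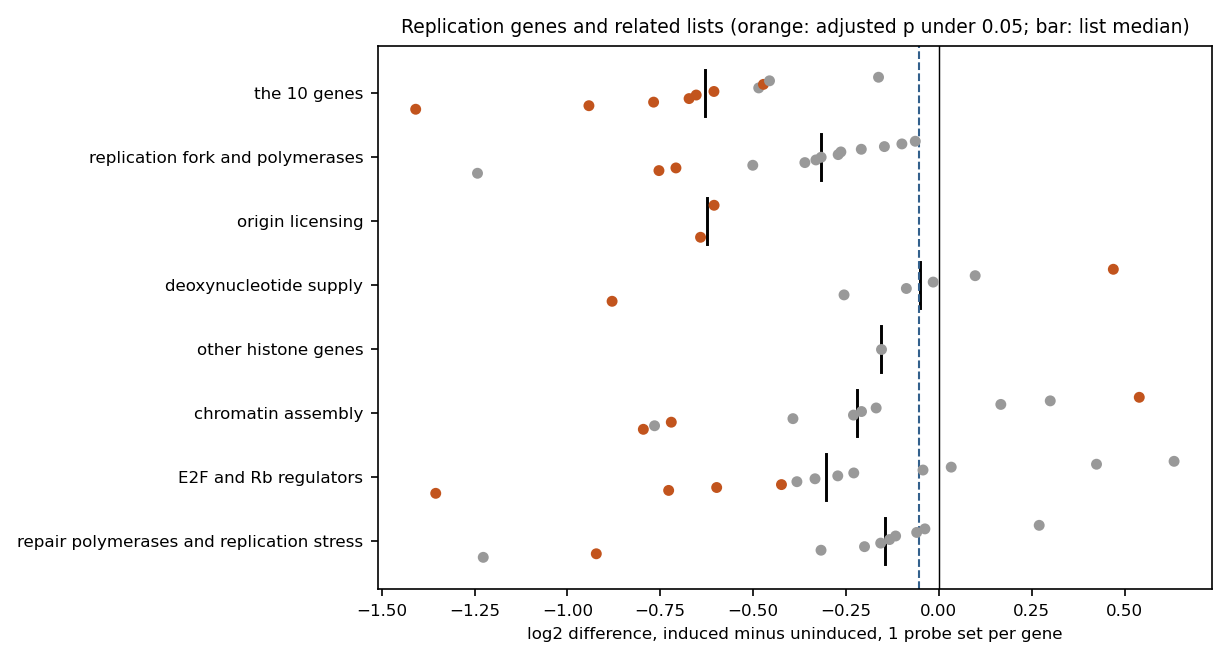
Log2 difference, induced minus uninduced, of each tested gene (1 probe set per gene) in the 10 genes and in the further lists; orange marks an adjusted p under 0.05, bars are list medians (-0.63 for the 10 genes and -0.32 for the fork list), and the dashed line is the median of all tested genes. Orange points lie left of 0 except Nme1 and Hmga1.

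The genes whose pattern over the 8 arrays was closest to the mean of the 10 were, in order, Casp2, Cdk1, Phox2a, Id1 and Nup54. The measure was the root mean square distance between centred log2 values, 0.11 for Casp2 and 0.13 for Nup54, against a median of 0.45 over 3613 genes. The mean of the 10 was lower on every induced array, so the closest genes are lower there by the ranking itself. Cdk1, the mitotic kinase, averaged 1192 ± 107 in induced and 2068 ± 66.2 in uninduced cells (SD, n = 4 each), and Casp2, a caspase, averaged 795 ± 107 in induced and 1307 ± 56.5 in uninduced cells. Phox2a, a transcription factor of noradrenergic cells, averaged 3552 ± 331 in induced and 5765 ± 332 in uninduced cells. Nup54, of the nuclear pore, differed by -0.68 ± 0.19 and did not pass (adjusted p = 0.054). Of the 10 genes, Mcm7 lay nearest to their mean (0.098), and Hist1h2ao and Hist4h4 lay farthest (0.53 each). Pold1, at 0.44, lay about as far as the median of all genes.

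Arrays and cells were checked as follows. Spearman correlations between arrays ranged from 0.945 to 0.967 over probe sets. The log2 ratio of 3′ to 5′ control signal spanned 0.39 to 0.56 in induced and 0.20 to 0.50 in uninduced arrays for Gapdh, -0.67 to 0.57 and 0.076 to 0.57 for beta-actin, and 0.50 to 1.14 and 0.87 to 1.37 for hexokinase, in the same order of groups; their part in the results was not tested. Of 11 chromaffin markers on the array 7 averaged above the background controls, Chgb highest, while the defining genes Th, Dbh, Ddc and Slc18a2 did not. Their summed signal was 23299.6 to 24520.2 in induced and 19806 to 25352 in uninduced arrays, and among 8 tested 2 rose and 1, Phox2a, fell. Summed fibroblast markers (3 of 9 above background, led by Thy1, which neurons also express) gave 4254 to 5485 in induced and 4148 to 5166 in uninduced arrays, and 0 of 7 tested were called. Schwann and glial markers (4 of 7, with Mbp, S100b and Sox10 not above background) gave 1274 to 1365 in induced and 1076 to 1386 in uninduced arrays, and 1 of 6 tested rose. Leukocyte markers (1 of 10, Cd14) gave 427 to 922 in induced and 457 to 747 in uninduced arrays, with 0 of 4 called. Adrenal cortex markers (0 of 5) gave 95.8 to 241 in induced and 130.0 to 282 in uninduced arrays, with 0 of 1 called. The part of these markers in the results was not tested.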

How the data were processed

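The authors deposited a linear, scaled intensity for every probe set on every array; the mean after trimming 2% from each end was 500.8 to 500.9 on all 8 arrays. The program that made them is not named in these sources, and there are no detection calls. A single symbol is annotated to 7018 probe sets, more than 1 symbol to 308, and no symbol to 1473.

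The constant 7, the 10th percentile rounded, was added before taking log2. The 59 control probe sets and 2611 with a mean under the 30th percentile (36.0) were left out; the 14 probe sets described here all passed, and 6129 were tested. Differences (induced minus uninduced) came from limma 3.58.1 under R 4.3.3 (eBayes with an intensity trend; 6 residual and 5.77 prior degrees of freedom), with Benjamini-Hochberg adjustment over all 6129. Folds include the added 7. Errors of differences are standard errors; those of signals are SDs. The number of arrays limits the precision. Exact permutation tests used scipy 1.17.1. Scripts were tested on simulated data. Promoters came from RefSeq for 9 of 10 genes.

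The genes, lists and rules were chosen with earlier results of these data known. The text names all 10 genes, from each list the genes that passed and otherwise up to 3 with the lowest p, and the 5 closest in pattern. Id2 was named besides, as a relative of Id1 and Id3. Alternatives changed the constant (32 or 100), the filter (none or the 50th percentile), the scaling, the trend, the blocks and the arrays included. The main fit did not pair the arrays by replicate number, and whether they were paired is not known.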

Additional observations from a re-analysis of the deposited data

Results flagged for a closer look

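Within groups of 4 arrays, 74 groups of 37 probe sets were looked at for 1 array far from the other 3, and 6 were marked where its gap to the nearest exceeded Dixon's 95% critical value; chance marks about 1 in 20. Mcm7 stood at 1629 in induced replicate 4, the other induced arrays at 2024 to 2043. Hist1h2af stood at 957 in uninduced replicate 1, the others at 720.5 to 759. Hist4h4 stood at 88 in induced replicate 1, the others at 27.8 to 35.3, all below the background controls. Mcm6 stood at 4380.2 in uninduced replicate 1, the others at 5101 to 5186.5. Dut stood at 2881 in uninduced replicate 4, the others at 3436 to 3530.7. Asf1b stood at 805 in uninduced replicate 2, the others at 664 to 673. For Mcm7, Hist1h2af and Asf1b the array stood on the side away from the other group, and each call held without it. The log2 difference of Mcm7 was -0.77 with induced replicate 4 and -0.69 without it.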

How the results depend on the processing

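The count of lower probe sets among the 14 was 10 under both other constants, both other filters, quantile normalization, the replicate block and the block for the wording of the source label, 8 without the eBayes trend and 8 without the replicates numbered 2, whose source label is worded differently, 5 with median centring, and 10 to 11 without 1 array. For the 3 replication lists the count of 5 fell to 2 with median centring and 2 without the replicates numbered 2, and was 5 to 6 without 1 array. Over all probe sets the 433 calls became 229 with median centring, 279 without the trend, 221 without the replicates numbered 2, and 313 to 408 without 1 array. Of the probe sets of the 10 genes 1 changed sign: Hist1h2ao at 0.077 without uninduced replicate 4 (range without 1 array -0.50 to 0.077), a value near background. Among list genes Macroh2a1 turned to 0.0034 without the replicates numbered 2. The cause was not tested. Same-numbered arrays correlated in their deviations from group means at -0.14, 0.058, -0.085 and 0.19 for numbers 1 to 4. Only for number 4 was the correlation with its own number the highest. These values cannot exclude that the arrays were paired by number. The replicate block gave 10 lower among the 14, 5 in the lists and 367 calls in all. Signal over background limits Hist1h2ao and Hist4h4, which the filter at the 50th percentile removed.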

Other observations

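Beyond the 10 genes, 9 probe sets are annotated to histone genes, and they were looked up after the other values were seen. Of these 4 lay under the low-signal filter, among them those of H1f4, H2bc1 and H3c1. The tested ones with 1 symbol were Macroh2a1, given above, and H4cl1, at 0.33 ± 0.33 (limma adjusted p = 0.69) with signals of 87.6 in induced and 71 in uninduced cells, near background. The other 3 are assigned to several histone genes each, so their signals cannot be given to a single gene. A probe set assigned to the 4 genes H2az2, H2az2l1, H2az2l2 and H2az2l3 averaged 383 ± 45.5 in induced and 922 ± 116 in uninduced cells (SD, n = 4 each). Its fall was 1.25 ± 0.14 on the log2 scale (limma adjusted p = 0.00012). Another assigned to the 2 genes H3f3a and H3f3b averaged 6918 ± 836 in induced and 10039 ± 1175 in uninduced cells and fell by 0.54 ± 0.11 (limma adjusted p = 0.012). The third, assigned to 10 H2B genes, averaged 67.2 in induced and 63.9 in uninduced cells with a log2 difference of the other sign, -0.25 ± 0.68, and did not pass (limma adjusted p = 0.92).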
